A study of Macaca mulatta with 6 samples.

Results

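The entries described here are those of 7 widely expressed miRNAs in the plasma of rhesus monkeys, namely miR-22, miR-423, miR-140, miR-185, miR-101, miR-326 and miR-1307. They were chosen by name from a table of 2046 small RNA entries: every arm, length variant and species name of the 7 stems was kept, which gave 21 entries. The stems themselves had been picked because an entry of each was lower after ischemia in these same libraries. The levels after and before ischemia are therefore a description of the members. A fit of all entries gives calls for some of them further below, which are not independent of that choice and support nothing. The name "lower after ischemia" did not hold for each stem, since the summed normalized counts of miR-185 were 119% of those before ischemia. This direction depended on the scaling, as its mean share of the library was 1.25% after and 1.34% before ischemia, lower in replicates 1 and 3 and higher in replicate 2. How widely the miRNAs are expressed was not measured, as the table holds plasma only.

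The samples were 3 libraries of plasma after ischemia and 3 before ischemia, from adult male rhesus monkeys without any genetic change. Ischemia was made by occlusion of the middle cerebral artery (MCAO), in which a clot was flushed through a micro-catheter into the artery of the right side, and only monkeys whose artery was still closed entered the study. The methods place the second blood draw at 3 h after stroke onset, while a figure label gives 2 h, and the first draw was the baseline. Fasting and anesthesia with ketamine and propofol are described for all animals. There were no sham-operated animals, so ischemia, catheter surgery and time under anesthesia cannot be told apart. Libraries of the same number are taken as the 2 samples of 1 monkey, called monkey 1, 2 and 3. Levels are given as normalized counts, for which the authors multiplied the reads of an entry by 1 factor per library. The library totals were 6036831 to 9737589 counts after ischemia and 10745499 to 15548693 before ischemia.

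miRNAs are short RNAs cut from hairpin precursors, and each hairpin can give a 5p and a 3p arm. As a rule 1 arm is loaded into Argonaute and kept while the other is degraded, and bases 2 to 8 of the loaded arm, the seed, pair with target mRNAs. In plasma, miRNAs are carried in vesicles, on proteins and on lipoproteins, and blood cells, vessels and organs all release them. miR-22 is known from work on heart muscle growth in mice, miR-140 from cartilage in mice, and miR-101 from repression of the histone methyltransferase EZH2 in human cancer cells. miR-423-5p has been studied in human plasma as a marker of heart failure, and miR-326 in human brain tumors as a repressor of Notch. In the rhesus annotation (T2T-MMU8v2.0, names only) the gene of miR-423 overlaps NSRP1, that of miR-140 overlaps WWP2, that of miR-185 overlaps TANGO2 and neighbors DGCR8, whose protein is the partner of Drosha in miRNA processing, and 1 of the genes of miR-101 overlaps RCL1.

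The sequences below are the 13 entries with a mean of at least 100 normalized counts in a group, shown because the levels given for each of them count that exact string. They are printed as the table lists them, 5′ to 3′ with T for U, and capitals mark the seed. In the names, L and R give bases gained or lost at the 5′ and the 3′ end against the reference miRNA, and the prefix gives the species of that reference.
mml-miR-22: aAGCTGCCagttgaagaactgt
mmu-miR-22-5p: aGTTCTTCagtggcaagcttta
mml-miR-423-5p: tGAGGGGCagagagcgagacttt
mml-miR-423-3p: aGCTCGGTctgaggcccctcagt
mml-miR-140-3p_L-1R+2: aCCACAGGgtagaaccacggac
mml-miR-140-5p: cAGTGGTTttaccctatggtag
mml-miR-185-5p: tGGAGAGAaaggcagttcctga
ocu-miR-185-5p_R+3: tGGAGAGAaaggcagttcctgattt
mml-miR-185-3p: aGGGGCTGgctttcctctggt
mml-miR-101-3p: tACAGTACtgtgataactgaag
hsa-miR-326_R+1: cCTCTGGGcccttcctccagt
hsa-miR-1307-5p_R+2: tCGACCGGacctcgaccggctct
pha-miR-1307_L-1: cTCGGCGTggcgtcggtcgtgg

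The 2 entries of the 5p arm of miR-185 share their seed, and the other 11 strings each have one of their own. In mml-miR-140-3p_L-1R+2 and pha-miR-1307_L-1 the loss of the first base moves the seed by 1 position against the reference. Lengths were 21 to 25 nt and the GC content ran from 36.4% in mml-miR-101-3p to 77.3% in pha-miR-1307_L-1. The names mml-miR-22 and pha-miR-1307_L-1 give no arm. mml-miR-22 is the 3p arm, since it differs from mdo-miR-22-3p only by T22C, counted from the 5′ end with the base of mml-miR-22 first. pha-miR-1307_L-1 holds the sequence known as the 3p arm of miR-1307 in humans and is called so below.

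Together the 21 entries took 2.29%, 3.03% and 2.81% of the normalized counts in the libraries after ischemia, against 5.43%, 8.16% and 8.26% before ischemia. The means were 2.71 ± 0.378% and 7.28 ± 1.61% (SD, n = 3 each), and the groups did not overlap. Before ischemia, miR-423 with 2.10 ± 0.490% and miR-140 with 1.96 ± 0.563% were the largest shares, followed by miR-185 and miR-22 with 1.34% each (SD 0.214 and 0.302, n = 3). miR-101 took 0.408 ± 0.161%, miR-1307 0.104 ± 0.0250% and miR-326 0.0295 ± 0.00689% (SD, n = 3 each). The most abundant entry before ischemia was mml-miR-140-3p_L-1R+2 with 169429 ± 62202 normalized counts (SD, n = 3), the 12th of the whole table. In the order of the 13 entries before ischemia, 8 of the 12 neighboring pairs overlapped in range. The first 4, mml-miR-140-3p_L-1R+2, mml-miR-423-5p, mml-miR-185-5p and mml-miR-22, overlapped in range across libraries. Within each library before ischemia mml-miR-140-3p_L-1R+2 was the highest of them, and the order of the others changed between libraries. The gaps without overlap lay below mml-miR-22, mml-miR-101-3p, pha-miR-1307_L-1 and mmu-miR-22-5p.

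**Figure D1:**
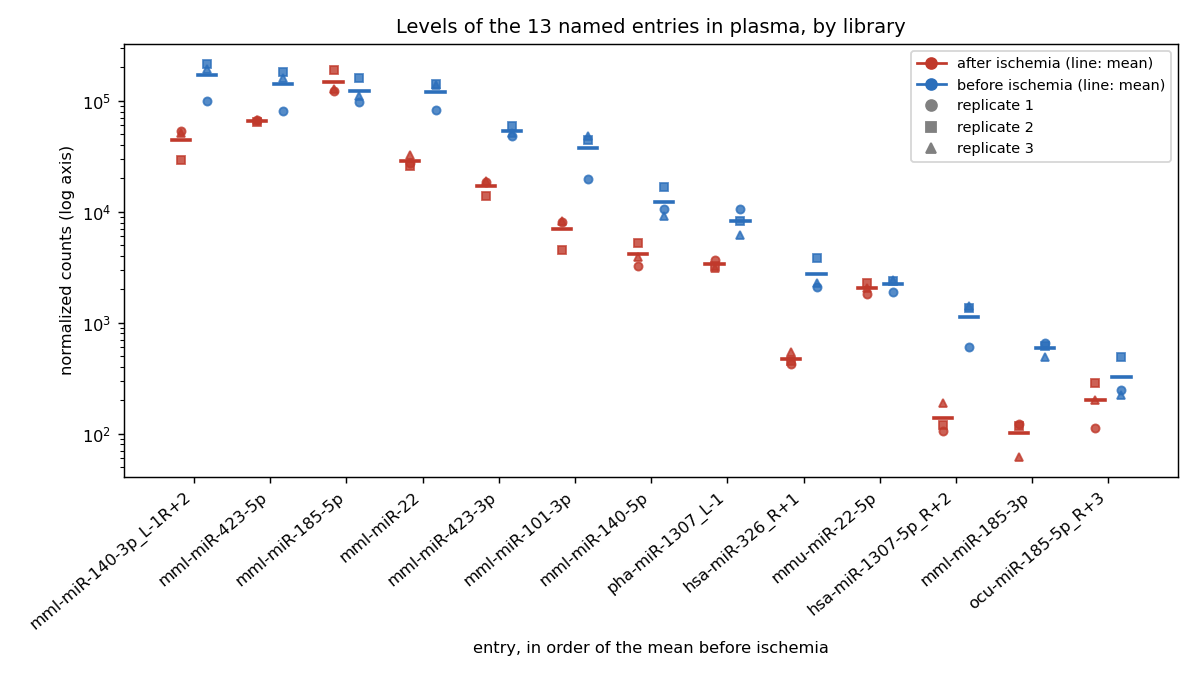
Normalized counts (log axis) of the 13 entries in each library, after ischemia in red and before ischemia in blue, with horizontal lines at the group means and symbols for the replicate numbers. The groups are apart for 10 of the 13 entries and overlap for mml-miR-185-5p, mmu-miR-22-5p and ocu-miR-185-5p_R+3. Of all 807 tested entries, 15.4% were lower and 11.5% higher without overlap, and the 13 were chosen on this contrast.

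The 2 arms of miR-22 differed in their course. mml-miR-22, the 3p arm and the form usually found in Argonaute, had 27679.5, 25909.7 and 32786.5 normalized counts after ischemia, against 82562.7, 141523 and 138395 before ischemia. Every library after ischemia was below every library before it, and the mean after ischemia was 23.8% of that before. The log2 fold change, taken on log2(normalized count + 1) here and below, was −2.03 (standard error 0.302). mmu-miR-22-5p, the passenger arm of the same hairpin, had 1800.6, 2298.9 and 2045.7 normalized counts after ischemia, against 1880.7, 2356.9 and 2406.6 before ischemia. These groups overlapped, and the log2 fold change of −0.11 (standard error 0.299) was smaller than its error. The ratio of the 3p to the 5p arm was 15.4, 11.3 and 16.0 after ischemia, against 43.9, 60.05 and 57.5 before ischemia. Such a ratio is taken within a library and is the same under any scaling of that library. It was lower in each monkey, by 1.51, 2.41 and 1.84 on the log2 scale. This ratio and those of the other stems below use values of the contrast on which the stems were chosen. Their shifts are therefore a description and support nothing.

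The other 3 entries of miR-22 were rare. mdo-miR-22-3p had 12.4, 8.98 and 39.1 normalized counts after ischemia, against 43.6, 75.3 and 115 before ischemia. It thus made up 0.0346% to 0.119% of mml-miR-22 after ischemia and 0.0528% to 0.0834% before, and these shares overlapped. mdo-miR-22-3p_1ss21GT was above 0 in 2 libraries, with 12.4 normalized counts in replicate 1 after ischemia and 4.71 in replicate 2 before ischemia. oan-mir-22-p3_1ss16TA was seen in replicate 1 after ischemia alone, at 6.89 normalized counts or 5 counts. Although its name points to the 3p arm, 15 of its 18 bases are a run of mmu-miR-22-5p, and it shares no run of 8 bases with mml-miR-22.

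miR-185 had its rarer arm lower and its main arm not. mml-miR-185-5p, the guide arm, had 122768, 191327 and 127248 normalized counts after ischemia, against 97419, 161181 and 109922 before ischemia. It was higher in each monkey by 0.33, 0.25 and 0.21 on the log2 scale, the groups overlapped, and the log2 fold change was 0.26 (standard error 0.311). When libraries were scaled by their totals this turned to −0.13, with the median of all tested entries moved by −0.38. mml-miR-185-3p had 122.7, 118 and 61.4 normalized counts after ischemia, against 660, 622 and 494 before ischemia. The highest library after ischemia was well below the lowest before it, and the log2 fold change was −2.60 (standard error 0.431). The values after ischemia rest on 33 to 92 counts per library, and those before on 847 to 925. The ratio of the 5p to the 3p arm was 1000.5, 1622 and 2073 after ischemia, against 148, 259 and 222 before ischemia, without overlap.

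Of the variants of the 5p arm, ocu-miR-185-5p_R+3 is 3 bases longer at the 3′ end. It had 113, 283 and 203 normalized counts after ischemia, against 247, 495 and 222 before ischemia. The groups overlapped at a log2 fold change of −0.68 (standard error 0.511). Its level was 0.0921%, 0.148% and 0.159% of mml-miR-185-5p after ischemia, against 0.254%, 0.307% and 0.202% before ischemia, so the longer form was the smaller share in all libraries after ischemia. bta-miR-185_L+1, which begins 1 base earlier and so has another seed, had 39.1 to 87.2 normalized counts after ischemia and 48.3 to 74.6 before ischemia (log2 fold change −0.26, standard error 0.554).

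Both arms of miR-140 were lower. mml-miR-140-3p_L-1R+2, the more abundant arm, had 53056.5, 29584 and 51190.1 normalized counts after ischemia, against 98907, 216484 and 192896 before ischemia (log2 fold change −1.89, standard error 0.385). mml-miR-140-5p, the arm best known from cartilage, had 3251, 5264.5 and 3922 normalized counts after ischemia, against 10674, 16798.5 and 9164 before ischemia (log2 fold change −1.54, standard error 0.343). Neither arm had overlapping groups, yet the monkeys differed for the 3p arm, with log2 differences of −0.90, −2.87 and −1.91. The ratio of the 3p to the 5p arm was 16.3, 5.62 and 13.1 after ischemia, against 9.27, 12.9 and 21.0 before ischemia. It was higher after ischemia in monkey 1 and lower in monkeys 2 and 3, and the groups overlapped.

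miR-423 was lower in both arms as well, the rarer arm by more. mml-miR-423-3p had 18726, 13813 and 18947 normalized counts after ischemia, against 47886, 59435 and 51680.5 before ischemia (log2 fold change −1.64, standard error 0.270). mml-miR-423-5p, the arm studied in heart failure, had 67659, 64286 and 66927 normalized counts after ischemia, against 81102, 180898 and 162193 before ischemia (log2 fold change −1.01, standard error 0.342). Its 3 values after ischemia lay within a coefficient of variation of 2.68%, against 37.5% before ischemia. The lowest value before ischemia, that of replicate 1, was close to the values after ischemia, and the difference of monkey 1 was −0.26 on the log2 scale, against −1.49 and −1.28 in the others. The ratio of the 5p to the 3p arm was 3.61, 4.65 and 3.53 after ischemia, against 1.69, 3.04 and 3.14 before ischemia. These groups did not overlap, although replicate 3 differed by 0.17 on the log2 scale only.

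mml-miR-101-3p, the dominant product of the miR-101 hairpins, had 8138.7, 4551.6 and 8336 normalized counts after ischemia, against 19709.9, 44689 and 48579.8 before ischemia. The groups did not overlap and the log2 fold change was −2.37 (standard error 0.425). The differences of −1.28, −3.30 and −2.54 between the samples of each monkey had the widest range among the 13 entries along with mml-miR-140-3p_L-1R+2. The other 4 entries of miR-101 never reached 50 normalized counts. mml-miR-101-1-5p_R-1 had 30.3, 0 and 11.2 normalized counts after ischemia, against 9.35, 47.7 and 45.8 before ischemia, with opposite directions in monkey 1 and monkeys 2 and 3. mmu-miR-101c_L+1R+2, which shares the seed of mml-miR-101-3p and differs from it by A21T and G22C, had 8.27, 0 and 0 normalized counts after ischemia, against 7.01, 17.5 and 18.7 before ischemia. mmu-miR-101c_L+1 and mml-miR-101-2-5p were above 0 in 1 library each, at 3.96 normalized counts in replicate 3 before ischemia and 6.41 in replicate 2 after ischemia. A count of 0 allows up to 3 counts, that is, 3.85 to 5.58 normalized counts in a library after ischemia and 1.70 to 2.34 before ischemia, for counting error only.

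hsa-miR-326_R+1, the single entry of its stem, had 427, 450.0 and 549 normalized counts after ischemia, against 2096.5, 3850.3 and 2296 before ischemia. The highest library after ischemia reached 549 and the lowest before it 2096.5, and the log2 fold change was −2.48 (standard error 0.359). miR-330-5p is the other miRNA of the table with this seed, and both strings are shown for the comparison.
hsa-miR-326_R+1: cCTCTGGGcccttcctccagt
mml-miR-330-5p_R-1: tCTCTGGGcctgtgtcttagg
mml-miR-330-5p_R-1 had 20.7, 39.7 and 26.04 normalized counts after ischemia, against 138, 85.4 and 51.5 before ischemia. It is no member of the 7 stems and did not pass the test, with an adjusted p = 0.163 in limma (0.0965 to 0.426 over the settings). Its log2 fold change was −1.57 with an error of 0.593, and the groups did not overlap.

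Both arms of miR-1307 were lower, the rarer arm by more, as for miR-423 but not for miR-140. hsa-miR-1307-5p_R+2 had 105, 121 and 190 normalized counts after ischemia, against 601, 1356 and 1407 before ischemia (log2 fold change −2.96, standard error 0.469), which was the most negative value of the 13 entries. It was counted 76, 94 and 102 times after ischemia, against 771, 2017 and 2488 times before ischemia. pha-miR-1307_L-1, the 3p arm, had 3706, 3234 and 3109 normalized counts after ischemia, against 10526, 8183 and 6235 before ischemia (log2 fold change −1.28, standard error 0.306). The ratio of the 3p to the 5p arm was 35.4, 26.8 and 16.4 after ischemia, against 17.5, 6.03 and 4.43 before ischemia. It was higher after ischemia in each monkey, by 1.01, 2.15 and 1.89 on the log2 scale, and the groups overlapped through replicate 3 after and replicate 1 before ischemia.

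**Figure D2:**
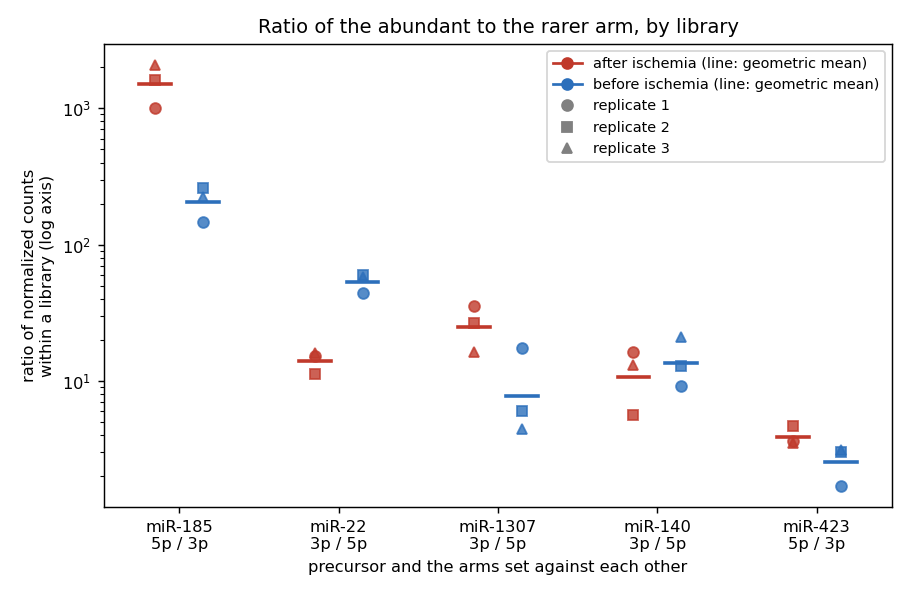
Ratio of the more abundant to the rarer arm (log axis) within each library for 5 precursors, after ischemia in red and before ischemia in blue, with lines at the geometric means. The groups are apart for miR-185, miR-22 and miR-423 and overlap for miR-1307 and miR-140. Arm ratios of other miRNAs were not computed, so the share of them without overlap is not known. The ratios use values of the contrast on which the stems were chosen.

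By monkey, 12 of the 13 entries were lower after ischemia in all 3 pairs, and mml-miR-185-5p was higher in all 3. Of all 807 tested entries, 424 had a log2 fold change below 0, and those lower in all 3 pairs were not counted. The stems were chosen on this contrast, so nothing is read from the count of 12. Monkey 2 showed the most negative difference for 7 entries, among them mml-miR-22, mml-miR-101-3p and both arms of miR-423, and for 288 of all 807 tested entries. Monkey 1 had the least negative difference for 7 of the 13 entries, against 44.6% of all 807 tested entries. Its library before ischemia was the lowest of the 3 for 9 of the 13 entries, against 37.7% of all tested entries. The median difference of the 13 entries was −1.35, −2.11 and −1.45 on the log2 scale in monkeys 1, 2 and 3, and that of all tested entries was 0.07, −0.04 and −0.09.

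**Figure D3:**
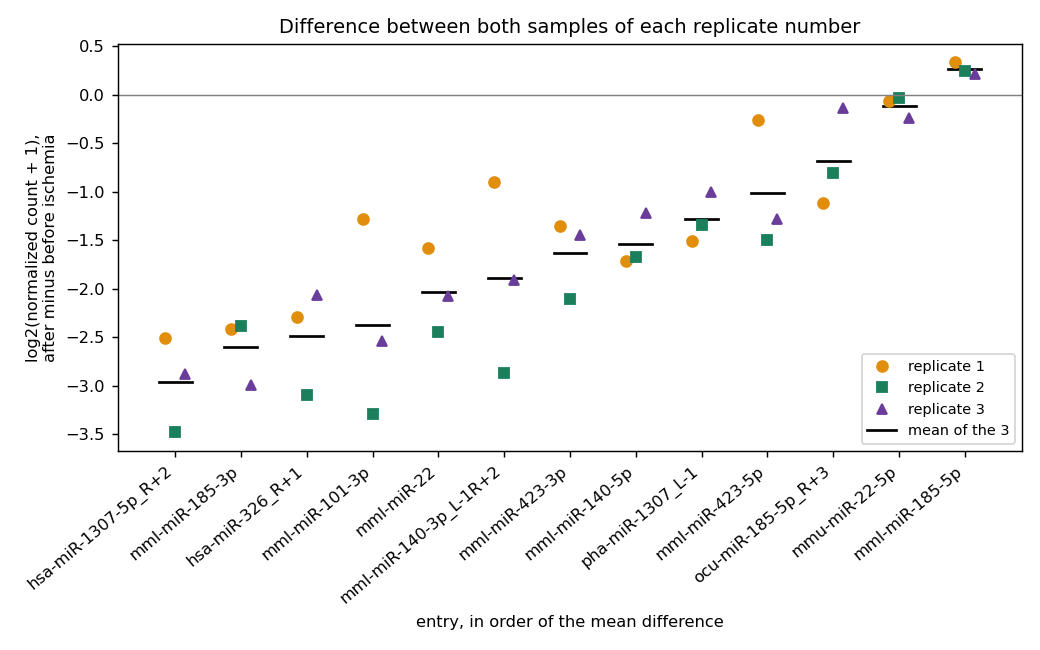
Difference in log2(normalized count + 1), after minus before ischemia, for the samples of each replicate number, with lines at the mean of the 3. Entries are sorted by that mean, which runs from −2.96 for hsa-miR-1307-5p_R+2 to 0.26 for mml-miR-185-5p.

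To place these values, limma was fitted to the 807 entries with 10 or more normalized counts in 3 or more libraries, and p-values were adjusted over all of them by the Benjamini-Hochberg method with a threshold of 0.05. Of these, 28 (3.47%) were lower and 16 (1.98%) were higher after ischemia. Of the 21 entries of the 7 stems, 16 passed the filter. Among these 16, mml-miR-22, mml-miR-423-3p, both arms of miR-140, mml-miR-185-3p, mml-miR-101-3p, hsa-miR-326_R+1 and both arms of miR-1307 were called lower, 9 in all, and none was called higher (none at an unadjusted p under 0.05 or by the unequal-variance test of the study either). Because the stems were chosen on this contrast, nothing is read from the excess over the background. Groups without overlap and lower after ischemia were found for 11 of the 16 entries, against 124 (15.4%) of all tested entries. The filter itself favors entries that are high in 1 group, such as mdo-miR-22-3p.

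Part of these calls depended on single libraries. As the calls use the values by which the stems were picked, a call that was kept is no sign of a firmer difference. mml-miR-101-3p was lost without replicate 1 after or replicate 3 before ischemia, each arm of miR-140 was kept in 1 of the 6 settings, and pha-miR-1307_L-1 in none. The count of 9 dropped to 5 when replicate 1 after or replicate 3 before ischemia was left out. It was 6 without replicate 3 after or replicate 2 before ischemia, and 0 of 15 tested without both libraries of replicate 3. The lower calls over all tested entries fell too, from 28 to 14 without replicate 1 after and 15 without replicate 3 before ischemia. They were 18 without replicate 3 after, 17 without replicate 2 before ischemia, and 1 of 698 without both libraries of replicate 3. The loss of calls was thus not particular to the members.

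As a comparison, 17 other stems that are widely expressed, such as miR-16, miR-24, miR-26a, miR-103, miR-191 and miR-484, had been listed without regard to how they moved. They were chosen with earlier results of these data known. Of their 39 entries 32 were tested, and none was called in either direction by limma, over all entries or adjusted over the list alone. At an unadjusted p under 0.05, 4 were higher and 2 lower. The median log2 fold change was 0.45 for this list, −1.77 for the 16 entries of the 7 stems and −0.06 for all 807 entries. As the 7 stems were chosen on this contrast, nothing is read from the gap between these medians. The unequal-variance test of the study, without adjustment, gave mml-miR-93-3p_R+1, mml-miR-191-5p and mml-miR-361-5p as higher and mml-miR-361-3p as lower. With libraries scaled by their totals, mml-miR-361-3p was lower in limma too (adjusted p = 0.0447, with a range of 0.0447 to 0.586 over the settings and 0.159 as reported here), and without both libraries of replicate 2, mml-miR-16-5p and hsa-miR-16-2-3p_L+1R-2 were higher. These few entries were named after their values were seen.

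**Figure D4:**
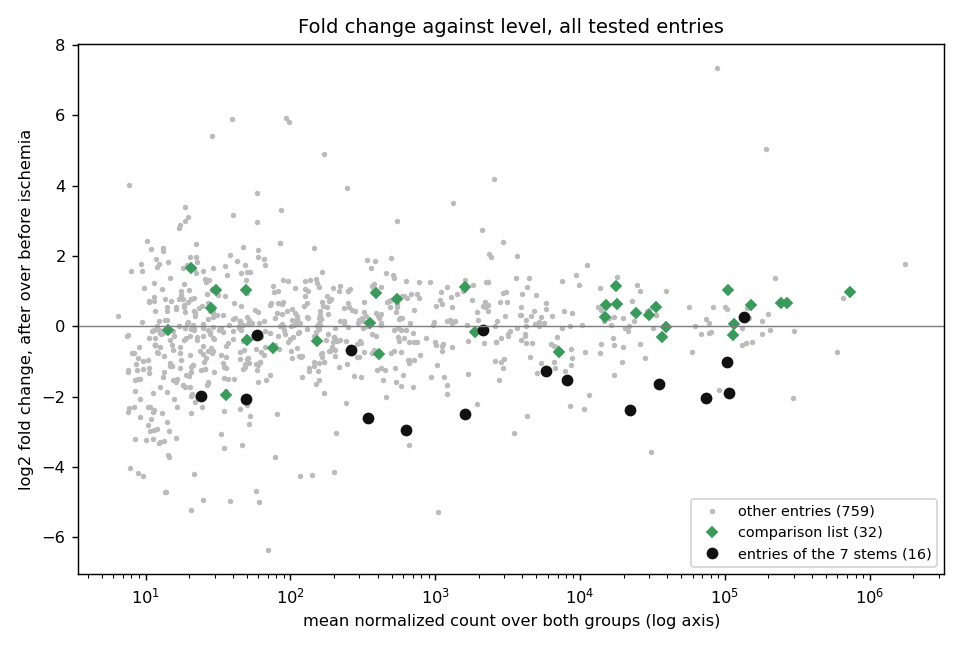
Log2 fold change, after over before ischemia, against the mean normalized count (log axis) of the 807 tested entries, with the 16 tested entries of the 7 stems in black and the 32 of the comparison list in green. The black points lie below 0 in 15 of 16 cases at low and high levels alike, against 424 of all 807 entries. Their stems were chosen because an entry of each was lower after ischemia.

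Markers of blood and liver cells were summed in the same samples. The summed level of 13 entries of red blood cell miRNAs (miR-451, miR-486 and miR-144) was 1494940 to 4446310 normalized counts after ischemia and 650274 to 1663800 before ischemia. The groups overlapped, and the sum was higher in each monkey, by 2.77, 1.12 and 0.88 on the log2 scale. Most of it was mml-miR-486-5p, with a mean of 2712510.0 normalized counts after and 807217 before ischemia. mml-miR-451_R-1 differed by 1.53, −0.82 and 0.31 on the log2 scale in monkeys 1, 2 and 3, so it was lower in monkey 2. Neither passed the test (adjusted p = 0.0833 and 0.839 from limma). The 13 entries of leukocyte miRNAs (miR-142, miR-150, miR-146a, miR-155 and miR-342) summed to 392543 to 530312 normalized counts after ischemia and 175091 to 282309 before ischemia. Most of this was mml-miR-142-5p_L+2R-2, with a mean of 320607 after and 122653 before ischemia. It was called higher (log2 fold change 1.37, adjusted p = 0.0354 from limma). The log2 fold changes of mml-miR-342-3p, mml-miR-150-5p and mml-miR-146a-5p were 1.98, 1.18 and 1.01, and these entries were not called. Other entries of the list went the other way or stayed near 0, with log2 fold changes of −3.04 for mml-miR-142-3p_R-1, which was called lower (adjusted p = 0.00937 from limma), −1.05 for mml-miR-150-3p and 0.02 for mml-miR-155_R+1. The 13 entries of platelet miRNAs (miR-126, miR-223, miR-197 and miR-199a) overlapped, with 535604 to 691534 normalized counts after ischemia and 444760 to 836827 before ischemia. The 4 entries of miR-122, the miRNA of liver cells, ran from 7341.6 to 244466 normalized counts after ischemia and from 14994 to 113675 before ischemia. No stem of these lists was at 0 in any library. Their part in the lower levels of the 7 stems was not tested.

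For each stem, the entry outside the 7 stems with the nearest profile was looked up among 669 tested entries of annotated miRNAs, by the mean absolute difference of log2 values over the 6 libraries after each profile was centered on its mean. mml-miR-148b-3p was nearest to mml-miR-22 (0.202) and to hsa-miR-326_R+1 (0.270). It had 5151, 4132 and 5069 normalized counts after ischemia, against 17518, 21643 and 16202 before ischemia. mml-miR-32-5p was nearest to mml-miR-140-3p_L-1R+2 (0.234) and mml-miR-101-3p (0.312), with its smallest difference in monkey 1 and its largest in monkey 2, as for these. pha-miR-1307_L-1 lay closest to mml-miR-301a-5p_L+2 (0.114), mml-miR-185-5p to hsa-miR-664a-5p_R-2 (0.0981), and mml-miR-423-5p to mdo-let-7f-2-3p_1ss22CT (0.202), which has the same values as mml-let-7a-3p_2ss8AG22CT. The profiles include the difference between the groups, on which the stems were chosen.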

How the data were processed

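Small RNA of plasma was sequenced in 3 libraries after and 3 before ischemia. The authors removed adapters and Rfam ncRNA, retained lengths of 18 to 26 nt and identified miRNAs with ACGT101-miR. Its version and the genome build are not given in the sources used here. The deposited table holds a signal per entry and library, normalized counts made by the authors. Divided by the step that most low values of a library share, 84.0% to 86.9% of a library's values above 0 were whole within 0.01 counts, which gave the factors and totals. They were too few for a count model. The table's 5 empty lines are not reported here.

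The members and lists were chosen with earlier results of these data known. Values were tested as log2(normalized count + 1) in limma 3.58.1 (R 4.3.3) with a variance trend, no covariate, a minimum of 10 in 3 libraries and Benjamini-Hochberg adjustment, and the test was checked on simulated data. Entries were named if a group mean reached 100 or if they led their stem. Python 3.11.15, pandas 2.3.3 and NumPy 2.4.6 gave sums, ratios and profiles, and Matplotlib 3.10.9 the figures. Marker and comparison lists were matched by stem. That same-numbered libraries share a monkey was taken from the study, which drew blood from the same animals at baseline and after onset and joins such samples in a plot. Their deviations from the group means correlated at 0.18, 0.36 and 0.29, and those of differently numbered libraries at −0.40 to 0.14. Alternatives were other scalings, filters, pseudocounts, a replicate block, no variance trend, the study's unequal-variance test, summed length variants and left-out libraries. P-values of the main fit rest on the spread between these 3 libraries a group, which limma moderates over all tested entries, without the pairing.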

Additional observations from a re-analysis of the deposited data

How the results depend on the processing

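The counts of calls depended on scaling, variance model and single libraries. Scaled by library totals, 48 of all tested entries were lower, against 28 as reported, 1 of the comparison list was lower, and 10 of the 7 stems' entries were lower, against 9. This scaling moved the median of all tested entries by −0.38 and the log2 fold change of mml-miR-185-5p to −0.13, that of mmu-miR-22-5p to −0.50 and that of mml-miR-22 to −2.42. With no variance trend, 10 of all tested entries were higher and 21 lower, and 4 of the 7 stems' entries were lower. By the unadjusted unequal-variance test of the study, 30 entries were higher and 57 lower, 3 of the 7 stems' entries lower, and 3 of the comparison list higher and 1 lower. Leaving out 1 library gave 5 to 15 higher and 14 to 28 lower entries, of which 5 to 8 were of the 7 stems. Leaving out both libraries of a replicate number gave 5 higher and 13 lower (replicate 1), 24 and 25 (replicate 2) and 2 and 1 (replicate 3), with 0 to 7 lower entries of the 7 stems and, in the comparison list, 0 to 2 higher. A replicate block gave 17 higher and 29 lower entries, 9 of them of the 7 stems, so the pairing changed no count of members. Each of the 12 entries below 0 stayed below 0 in all 16 settings run on single entries. Other filters and the replicate block leave a fold change as it is. Leaving out libraries cannot turn the sign where the groups do not overlap. The stems were also chosen on this contrast, so the kept sign supports nothing. Entries under about 10 normalized counts rest on few counts, above all after ischemia. There a single count was 1.28 to 1.86 normalized counts, against 0.565 to 0.779 before ischemia. The smallest change that could be detected in such entries was not computed. The cause of the shifts was not tested.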

Other observations

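A strand opposite to miR-423 was listed too. hsa-miR-3184-5p_R-1, whose gene lies antisense to that of miR-423 in humans, shares the seed of mml-miR-423-5p, and 21 of its 23 bases are the reverse complement of mml-miR-423-3p. It had 0, 0 and 22.3 normalized counts after ischemia, against 0, 8.74 and 14.1 before ischemia, and was not tested because of its low level. Predicted candidates with the seeds of members were PC-5p-24783_51, with that of mml-miR-101-3p, and PC-3p-7137_218, with that of mml-miR-423-3p. Their log2 fold changes of 1.07 (standard error 1.28) and −0.28 (standard error 0.647) did not pass the test (adjusted p = 0.678 and 0.863 from limma, 0.547 to 0.955 and 0.523 to 0.986 over the other settings).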
